A study of Oncorhynchus mykiss with 9 samples.

Results

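The transcripts followed here encode the histone lysine demethylases, the TET enzymes and related jumonji proteins, measured by RNA sequencing in rainbow trout (Oncorhynchus mykiss) head kidney. In bony fishes this organ forms most of the blood cells, and it also holds interrenal cells, which make cortisol, and chromaffin cells, which make catecholamines. Members were the rows of the deposited gene table whose symbol begins with kdm and a digit or with jmjd, or is one of tet1, tet2, tet3, uty, phf2 and phf8, with or without a copy suffix. The rule found 64 rows among 44219, and 62 of them had a mean of 10 counts or more per library in a group and were analysed, as were 28711 rows of the whole table. The 62 rows stand for 24 genes in 10 families. Salmonid fishes carry duplicated copies of many genes, and rows that share a gene are called copies below. Their transcript lengths, derived from the deposited values, can differ widely, with 706, 2004 and 2556 bases for the kdm8 rows. Whether such rows are duplicated genes or pieces of the same gene was not tested. The rule itself uses names and that minimum, and it was drawn up with earlier results of these data known.

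There were 3 groups of 3 libraries, all from full-sib fish of about 130 g held at 12 °C with no other treatment named in the labels. Severe hypoxia was 3.0 mg/L dissolved oxygen for 12 h, moderate hypoxia was 4.5 mg/L for 12 h, and the control was kept at 8.5 mg/L and is labelled 0 h. Between either hypoxia group and the control, oxygen and sampling time both differ and cannot be told apart. The deposited table gives 1 estimated mean count and 1 FPKM per row and group, with no value per library, so that the spread between fish is unknown, whether groups overlap cannot be seen, and no test was made of any difference below. A 95% counting interval is given with ratios instead. It covers counting error only and leaves out variation between fish. It takes counts as independent molecules, although they are estimates and reads carried no molecular identifiers.

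Lysine demethylases remove methyl groups from histone tails. The KDM1 enzymes use flavin and oxygen. The jumonji enzymes of the KDM2 to KDM7 families use iron, 2-oxoglutarate and oxygen, and the TET enzymes use the same cofactors to oxidise methylated cytosine in DNA. Their need for oxygen as a substrate has made them candidates for oxygen sensing on chromatin, as described for KDM5A and KDM6A in mammalian cells, and mammalian KDM3A, KDM4B and KDM4C are known as transcriptional targets of hypoxia-inducible factor. Members of these families also steer blood formation in mammals, among them KDM1A in red cell and granulocyte maturation and TET2 in blood stem cells. Rows named kdm3a, tet1 or uty were not analysed here.

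The mean library held 14700244 counts in severe hypoxia, 15301518 in moderate hypoxia and 15246482 in the control, so depth was nearly even. The make-up of the libraries was not. Globin transcripts took 7.37% of counts in severe hypoxia, 4.12% in moderate hypoxia and 13.0% in the control, and mitochondrial transcripts took 4.24%, 2.36% and 5.14% in the same groups. In bulk RNA, fewer cells of a type and less RNA per cell cannot be told apart. Because the make-up differed, ratios were taken after scaling by trimmed means of M values, in which severe counts are divided by 1.22, moderate counts by 1.62 and control counts by 1. Scaled by library totals alone, the median of all analysed rows was 0.69 on the log2 scale for moderate over control, 0.34 for severe over control and -0.34 for severe over moderate, while on scaled counts it stood at 0.004, 0.004 and 0.010. Ratios below are relative to that shift, and "called" means 2-fold or more on scaled counts.

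The KDM5 family, whose members take methyl groups from lysine 4 of histone H3, had the highest summed level per length in all 3 groups, at 53.0 FPKM in severe hypoxia, 94.8 FPKM in moderate hypoxia and 32.6 FPKM in the control. KDM2 came next with 41.6, 55.4 and 28.0 FPKM in the same groups. KDM4 had 33.5, 52.3 and 24.8 FPKM and the other JMJD proteins had 35.6, 36.7 and 20.2 FPKM, so that KDM4 was above them in moderate hypoxia and the control and below them in severe hypoxia. The single highest row in every group was a KDM5B copy, at 20.5 FPKM in severe hypoxia, 28.7 FPKM in moderate hypoxia and 11.7 FPKM in the control. At the other end stood the KDM8 family with 4.63, 6.28 and 4.71 FPKM. These sums run over unlike numbers of rows, 3 for KDM8 and 8 for KDM5, and the order depends on that. The phf2 rows and a KDM2B copy were lowest in the control, between 0.056 and 0.079 FPKM. The FPKM sums of all members were 245 in severe hypoxia, 378 in moderate hypoxia and 164 in the control, and they took 0.134%, 0.215% and 0.0873% of all counts. FPKM is relative to the library total and so carries the shift between groups given above. How far neighbours in this order differ beyond the spread between fish is unknown.

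The share that each family took of the members' summed FPKM does not depend on the scaling between groups. KDM5 took 21.6% in severe hypoxia, 25.1% in moderate hypoxia and 19.9% in the control. KDM6 took 8.39%, 9.61% and 11.7%, so that its share was lower in both hypoxia groups than in the control. The jmjd6 gene alone took 9.57% in severe hypoxia, 6.45% in moderate hypoxia and 5.22% in the control. For kdm5c the shares were 2.54%, 5.33% and 1.26%, and for tet2 they were 0.972%, 1.73% and 0.430%. Both genes thus took their largest share at 4.5 mg/L, and jmjd6 took its own at 3.0 mg/L.

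Moderate hypoxia over the control is the comparison that asks how these transcripts stand after 12 h at an intermediate oxygen level. Members were mostly higher in moderate hypoxia. Of the 62 rows, 20 were called higher, or 32.3%, where 20.0% of all analysed rows were, and 0 were called lower, where 14.1% were. Above 0 stood 51 rows, or 82.3%, against 50.2% of all rows, and below 0 stood 11, or 17.7%, against 49.8%. The median log2 ratio of the members was 0.62, with single rows between -0.98 and 3.38. With the trend of ratios with transcript length taken out, that median was 0.31. On library totals the members' median was 1.30. It lay as far above the median of all rows by construction, since a scaling shifts all ratios alike. There 41 rows were called higher, where 38.0% of all rows were.

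**Figure D1:**
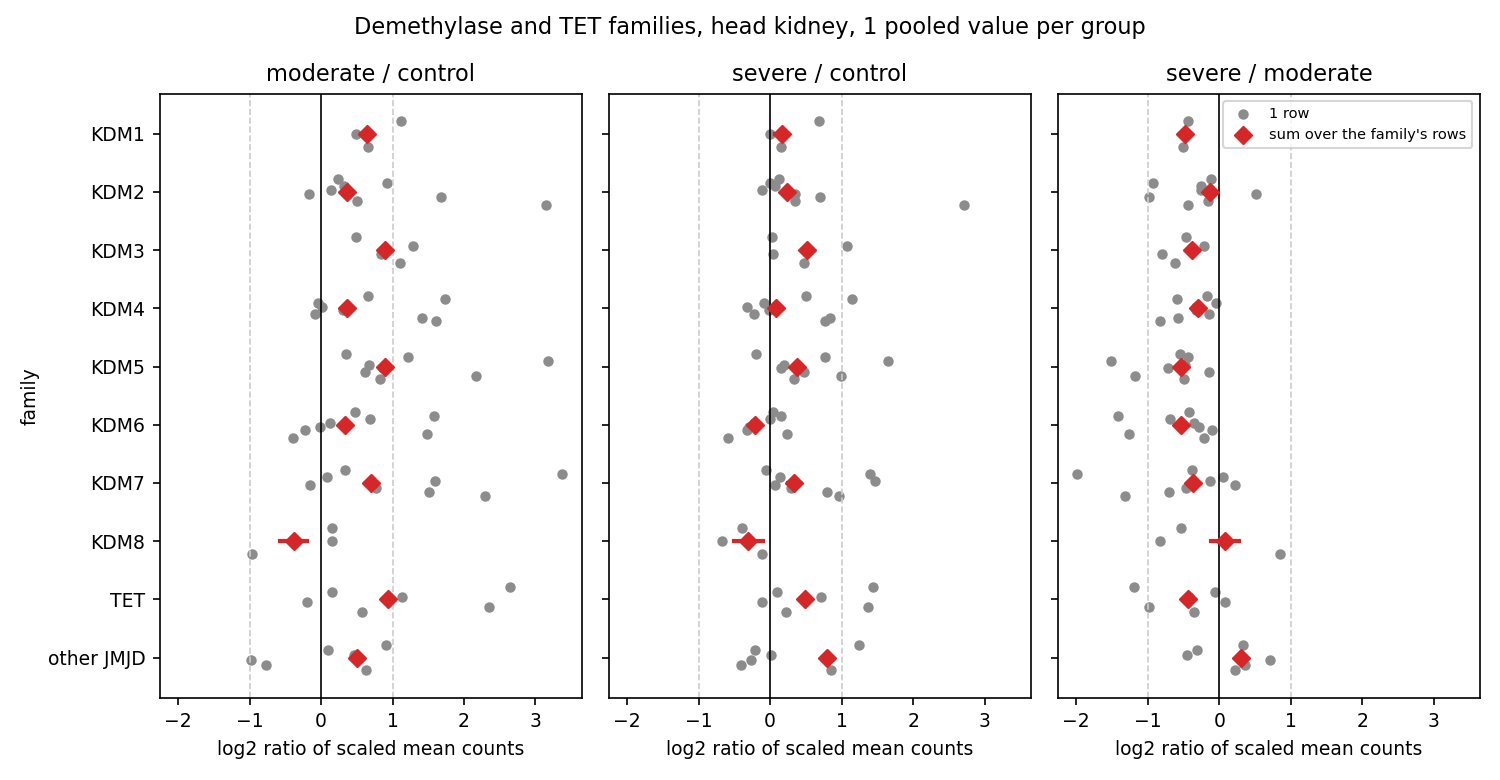
Log2 ratio of scaled mean counts (x axis) by family (y axis) for moderate over control, severe over control and severe over moderate hypoxia. Grey points are single rows, red diamonds the sum over a family's rows with its 95% counting interval, often hidden by the symbol, and dashed lines mark 2-fold. The diamonds of 9 families lie above 0 in the left panel, KDM8 being the exception at -0.38 (0.31 on library totals). With the length trend taken out, KDM4 and KDM6 turn to -0.0039 and -0.19 there. Those of 8 families lie below 0 in the right panel, where KDM8 and the other JMJD proteins turn to -0.27 and -0.05 on library totals. With the length trend taken out, KDM2, KDM3, TET and KDM8 turn to 0.06, 0.04, 0.20 and -0.06 in that panel.

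Among the lysine 4 demethylases, kdm5c stood farthest from the control. Its first copy had a mean of 242.7 counts in severe hypoxia, 923.3 counts in moderate hypoxia and 63.33 counts in the control. Its second copy had 328.8, 984.2 and 135.3 counts in the same groups. In both copies moderate hypoxia was highest and the control lowest, and the moderate over control log2 ratios were 3.17 (counting interval 2.96 to 3.39) and 2.17 (2.02 to 2.32). Summed over both, the gene was 5.93-fold higher. The 4 copies of kdm5b, the most abundant gene of the set, stood between 0.61 and 1.21, and their sum was 1.62-fold higher. For kdm5a the sum was 721.7 counts in severe hypoxia, 1440 counts in moderate hypoxia and 640.3 counts in the control, and the log2 ratio of 0.48 was below the 2-fold call. The family sum of KDM5 had a log2 ratio of 0.90 (0.87 to 0.94). The KDM1 family, flavin enzymes that act on the same lysine, had 0.64 (0.56 to 0.72). Within it kdm1a, the catalytic subunit of the CoREST repressor complex, stood at 0.53, and kdm1b, known for its role in oocytes of mammals, at 1.12. With the trend of ratios with transcript length taken out, the KDM5 sum stood at 0.49 and the KDM1 sum at 0.55. The order of the KDM5 and KDM1 families thus depended on that step.

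The TET enzymes were split between their genes. The first tet2 copy had a mean of 175.8 counts in severe hypoxia, 535.1 counts in moderate hypoxia and 53.09 counts in the control. The second had 127.9, 333.9 and 40.58 counts. Moderate hypoxia was highest and the control lowest in both, with moderate over control log2 ratios of 2.64 (2.41 to 2.89) and 2.35 (2.07 to 2.63). The sum of tet2 was 5.73-fold higher in moderate hypoxia. Of the 4 tet3 rows 1 was called higher, a tet3-b copy with 987.7 counts in severe hypoxia, 1759 counts in moderate hypoxia and 494.3 counts in the control and a log2 ratio of 1.14 (1.05 to 1.22). The other tet3 rows lay between -0.20 and 0.57. As tet3 was much the more abundant of these genes, the TET family sum was 1.90-fold higher, a log2 ratio of 0.93 that stood at 0.18 with the trend of ratios with transcript length taken out.

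KDM7 enzymes read methylated lysine 4 and remove methyl groups from other lysines of histones. Both phf8 rows were called higher in moderate hypoxia. The first had 141.0 counts in severe hypoxia, 305.7 counts in moderate hypoxia and 66.33 counts in the control, and the second had 101.0, 335.3 and 42.33 counts. Their log2 ratios of 1.51 (1.29 to 1.74) and 2.29 (2.02 to 2.57) put both in the called set. A phf2 row had the largest ratio of all members, 3.38 (2.63 to 4.23), on low counts, with 16 in severe hypoxia, 84 in moderate hypoxia and 5 in the control. Of the 4 kdm7a rows 1 was called higher, with 87.80, 128.0 and 26.11 counts and a log2 ratio of 1.60. The other kdm7a rows lay between -0.15 and 0.33.

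The KDM3 and KDM4 families take methyl groups from lysine 9 of histone H3. Of the kdm3b copies, the second had 697.3 counts in severe hypoxia, 1070 counts in moderate hypoxia and 270.3 counts in the control, with a moderate over control log2 ratio of 1.29 (1.18 to 1.40). The first stood at 0.49. A jmjd1c copy, from a relative of KDM3 whose demethylase activity is debated, was called higher at 1.10. Both kdm4c rows were called higher. They had 134.7 and 111.8 counts in severe hypoxia, 265.7 and 264.4 counts in moderate hypoxia, and 61.87 and 53.74 counts in the control, and their log2 ratios were 1.41 (1.17 to 1.64) and 1.60 (1.36 to 1.86). For kdm4b the copies lay at 0.01 and -0.08, and the interval of their sum, -0.11 to 0.03, spans 0. Of the 4 kdm4a rows 1 was called higher, at 1.74 (1.56 to 1.93), with 254.3 counts in severe hypoxia, 508.0 counts in moderate hypoxia and 94.00 counts in the control. Mammalian KDM4B and KDM4C are both known as targets of hypoxia-inducible factor, and in moderate hypoxia the called gene was kdm4c and not kdm4b. In severe hypoxia no row of either gene was called.

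The KDM6 enzymes take methyl groups from lysine 27 of histone H3, and copies of kdm6b lay far apart. The kdm6ba and KDM6B copies had moderate over control log2 ratios of 1.57 (1.41 to 1.74) and 1.49 (1.31 to 1.67). Of these the kdm6ba copy had 171.7 counts in severe hypoxia, 608.2 counts in moderate hypoxia and 126.2 counts in the control. The other kdm6b copies stood at -0.02 and -0.39, the second of them with 291.3, 446.3 and 361.0 counts. The 4 kdm6a rows lay between -0.23 and 0.69, and the KDM6 sum was 1.25-fold higher in moderate hypoxia, a log2 ratio of 0.33 that turned to -0.19 with the length trend taken out. KDM2 enzymes act on lysine 36, and KDM2B brings a polycomb complex to unmethylated CpG islands. The kdm2aa copy had 161.6 counts in severe hypoxia, 422.0 counts in moderate hypoxia and 81.76 counts in the control, and its log2 ratio was 1.67. The most abundant kdm2b copy stood at -0.16, with 932.0, 867.9 and 600.0 counts.

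The small jumonji proteins, several of which hydroxylate other proteins and not histones, included the 3 lowest ratios on scaled counts. Even so, 6 of their 9 rows, kdm8 among them, stood above 0. For jmjd7 the mean was 156.3 counts in severe hypoxia, 126.7 counts in moderate hypoxia and 154.7 counts in the control, a log2 ratio of -0.98 (-1.18 to -0.78) for moderate over control. The analysed jmjd4 row, whose human protein modifies a translation termination factor, had 77.00, 79.33 and 83.67 counts and stood at -0.77. A kdm8 copy had 87.67, 64.33 and 77.62 counts and stood at -0.97. None of these reached 2-fold. On library totals jmjd4 and jmjd7 stood at -0.08 and -0.29. Their transcripts are short, with derived lengths of 1859 and 1563 bases. With the length trend taken out, jmjd4 stood at -0.55, jmjd7 at -0.59 and this kdm8 copy at -0.93. The lowest rows then included members of other families, with a Tet3 copy at -0.98 and kdm6bb at -0.93. The kdm8 sum of 3 rows was -0.38 on scaled counts and 0.31 on library totals. Above 0 were the other kdm8 rows, at 0.15 each, the JMJD8 rows, at 0.09 and 0.46, and both jmjd6 rows, which are described with severe hypoxia.

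**Figure D2:**
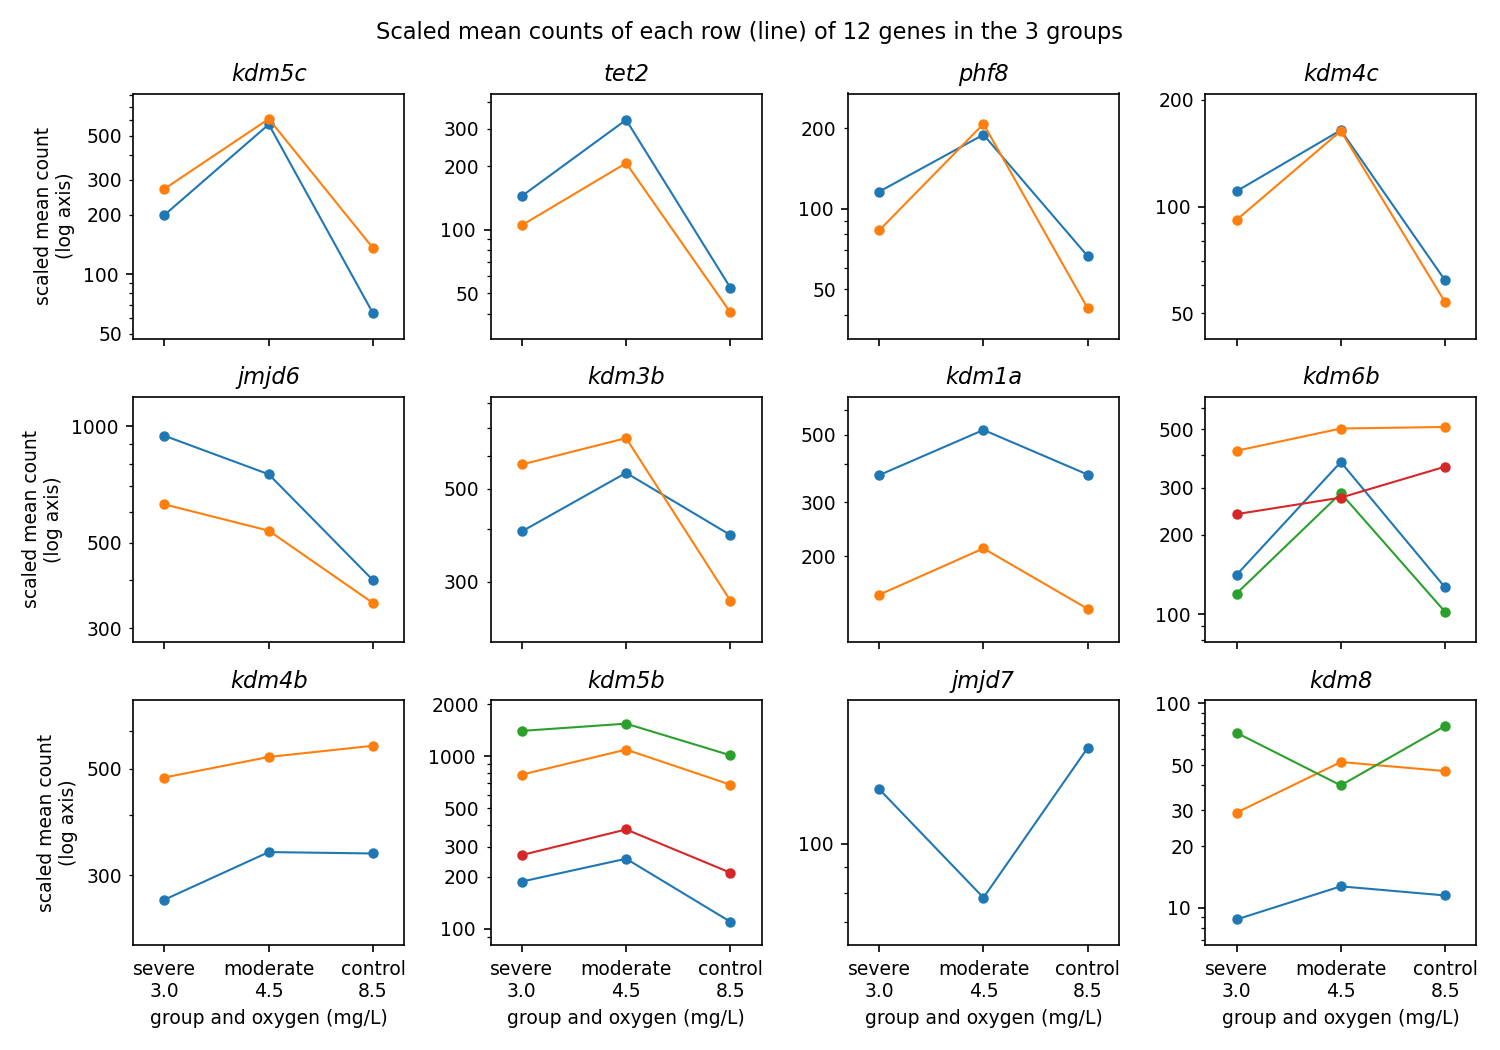
Scaled mean count per library (y axes, log scale, each with its own range) of every analysed row, drawn as 1 line each, for genes described in the text, which were chosen after their values were seen. The x axes give the group with its dissolved oxygen in mg/L. The lines of kdm5c, tet2, phf8 and kdm4c peak at 4.5 mg/L, those of jmjd6 are highest at 3.0 mg/L on this scaling and at 4.5 mg/L on library totals, and those of kdm6b and kdm8 cross.

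Length and the level in the control moved with these calls. The members' transcripts are long, with a median derived length of 5683 bases against 2743 bases for all analysed rows, and over all rows the moderate over control ratio rises with length, with medians of -0.54 under 2000 bases and 0.71 above 8000 bases. The members in those classes, 5 and 10 rows, had medians of 0.09 and 1.12. With the trend over all rows taken out, the members' median was 0.31 and 15 rows were called higher, or 24.2%, where 19.1% of all rows were. The kdm5c copies then had log2 ratios of 2.79 and 1.71 and the tet2 copies 2.01 and 1.72, and both phf8 and both kdm4c rows also stayed above 2-fold. The call was lost by 6 rows, namely the tet3-b copy at 0.35, JMJD1C at 0.31, KDM6B at 0.70, kdm6ba at 0.95, KDM3B at 0.83 and a kdm5bb copy at 0.97. It was gained by a kdm8 row at 1.26, whose derived length was 706 bases.

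The 20 called rows had a median of 69.61 counts in the control, with a range of 4.333 to 494.3, and the other 42 rows had 239.7, with a range of 6.667 to 1014. The ratio is itself computed from the control count, so these values are not independent. Of the 3 rows under the minimum of 10 counts in the control, which passed through hypoxia alone, 2 were called higher in moderate hypoxia. Without the 3 rows, 18 of 59 were called higher. The share of all rows under that same restriction was not computed, so this count has no matching background. Just outside the minimum lay a jmjd4 row with 4.667 counts in severe hypoxia, 8.667 in moderate hypoxia and 3.667 in the control and a Kdm5c row with 6.827, 6.107 and 5.013 counts. Just inside lay a phf2 row with 10, 18.33 and 6.667 counts.

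**Figure D3:**
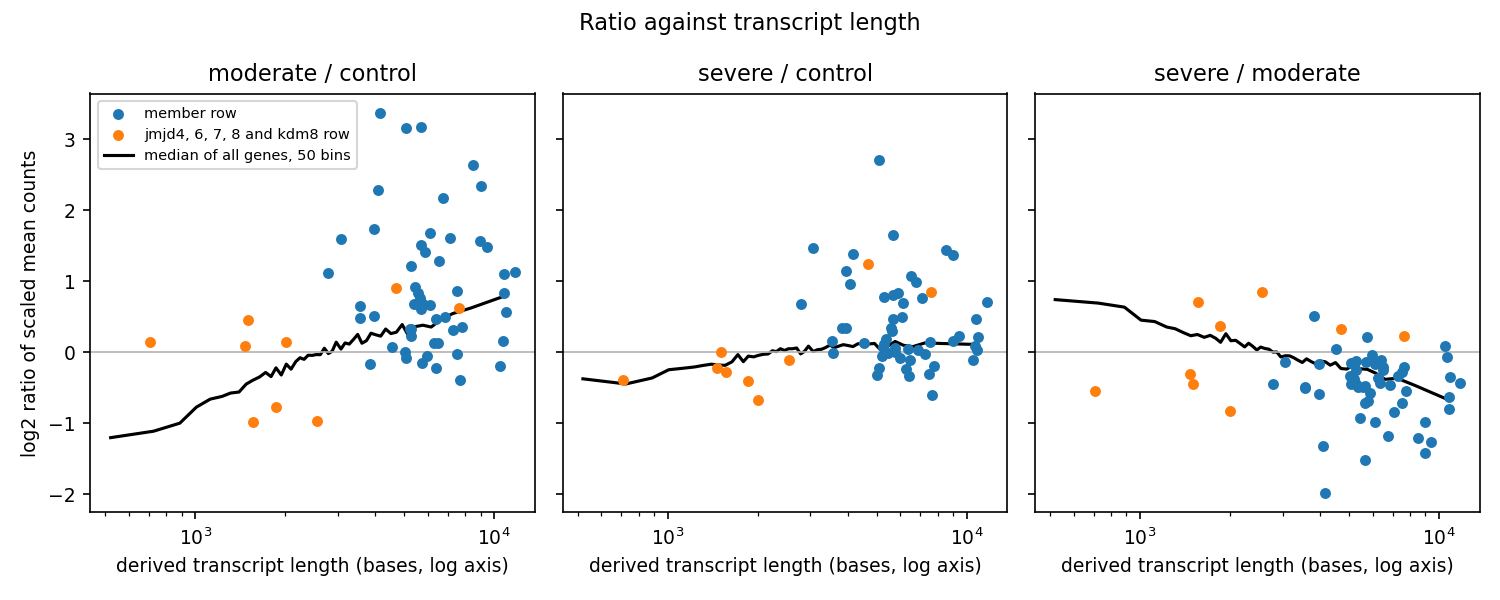
Log2 ratio of scaled mean counts (y axis) against derived transcript length in bases (x axis, log scale) for the 3 comparisons. Blue points are member rows, orange points the jmjd4, jmjd6, jmjd7, jmjd8 and kdm8 rows, and the black line is the median of all analysed rows in 50 bins of length. The line rises with length in the left panel and falls in the right one, and the highest kdm5c, tet2 and phf2 rows stand well above it on the left.

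Severe hypoxia over the control asks about the lower oxygen level at the same 12 h, against the same control libraries. Fewer members were called. At 3.0 mg/L 9 of 62 rows were called higher, or 14.5%, close to the 13.7% of all analysed rows, and 0 were called lower, where 4.40% were. Above 0 stood 42 rows, or 67.7%, against 50.3% of all rows, and below 0 stood 20, or 32.3%, against 49.7%. The members' median was 0.15, with single rows between -0.68 and 2.71, and 0.49 on library totals, where 19 rows were called higher and 20.4% of all rows were. The share of members called higher was thus near that of the table as a whole. Without the 3 rows that were under 10 counts in the control 7 of 59 were called, and the share of all rows under that restriction was not computed.

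The jmjd6 gene, a hydroxylase of splicing factors that is also known for a role in the release of paused polymerase, was the abundant member that stood out in severe hypoxia. Its copies had 1154 and 766.6 counts in severe hypoxia, 1217 and 869.5 counts in moderate hypoxia, and 400.0 and 349.0 counts in the control. The severe over control log2 ratios were 1.24 (1.15 to 1.34) and 0.85 (0.74 to 0.96), of which the first was called. Summed, the gene was 2.10-fold higher in severe hypoxia than in the control and 1.72-fold higher in moderate hypoxia than in the control. With the length trend taken out the copies stood at 1.12 and 0.72. On account of jmjd6 the small JMJD proteins had the largest family ratio in this comparison, 0.80 (0.74 to 0.87), although the median of their 6 rows was -0.10.

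The genes with the largest ratios in moderate hypoxia were higher in severe hypoxia as well, by less. The tet2 copies stood at 1.44 (1.18 to 1.71) and 1.37 (1.07 to 1.67) for severe over control and both were called. The first kdm5c copy was called at 1.65 (1.42 to 1.89), and the second lay just under 2-fold at 0.99 (0.83 to 1.17). Also called were 1 kdm7a row at 1.46, 1 KDM4A row at 1.15, 1 KDM3B row at 1.08, 1 phf2 row at 1.39 on 16 counts in severe hypoxia, against 5 in the control, and a KDM2B copy at 2.71 (1.88 to 3.67), with 34.67 counts in severe hypoxia, 62.33 counts in moderate hypoxia and 4.333 counts in the control. The kdm4c rows stood at 0.84 and 0.77 and the phf8 rows at 0.80 and 0.97, none of them called. Severe and moderate ratios share the control libraries, so a likeness between them is no separate evidence.

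On scaled counts the sums of the lysine 27 demethylases and of kdm4b lay below the control, and on library totals they lay above it. The KDM6 sum had a log2 ratio of -0.21 (-0.26 to -0.16) on scaled counts and 0.13 on library totals. The kdm6bb row was lowest among the rows with at least 50 counts, with 291.3 counts in severe hypoxia, 446.3 counts in moderate hypoxia and 361.0 counts in the control and a severe over control ratio of -0.60 (-0.73 to -0.47). The kdm6a sum was -0.15 on scaled counts and 0.19 on library totals, and the kdm4b sum was -0.26 (-0.33 to -0.18) and 0.08. For kdm5a the same values were -0.11 and 0.23. The scaled kdm1a sum stood at 0.04, with an interval of -0.06 to 0.14 that spans 0. The genes described as oxygen sensors in mammalian cells, KDM5A and KDM6A, thus had no row called on scaled counts in either hypoxia group.

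The comparison of severe with moderate hypoxia holds time constant and differs in oxygen alone, as far as the labels say. Most members were lower in severe hypoxia. Of the 62 rows 53 stood below 0, or 85.5%, against 49.4% of all analysed rows, and 9 stood above 0, or 14.5%, against 50.6%. In all 7 were called lower, or 11.3%, close to the 10.5% of all rows, and 0 were called higher, where 9.03% were. The median was -0.43, with rows between -1.98 and 0.85. On library totals it was -0.78, with 16 rows called lower where 19.5% of all rows were. Over all rows this ratio falls with transcript length, with medians of 0.34 under 2000 bases and -0.58 above 8000 bases. The members' transcripts are long, and with that trend taken out their median was -0.11.

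The 7 rows called lower were both kdm5c copies, 2 kdm6b copies and 1 row each of phf2, phf8 and tet2. With the length trend taken out 4 of the 7 lost the call, kdm6ba at -0.95, KDM6B at -0.60, the second kdm5c copy at -0.79 and the tet2 row at -0.73. The kdm5c copies had 242.7 and 328.8 counts in severe hypoxia, against 923.3 and 984.2 counts in moderate hypoxia, with log2 ratios of -1.52 (-1.64 to -1.40) and -1.17 (-1.28 to -1.07). The kdm6ba copy had 171.7 counts in severe hypoxia, against 608.2 counts in moderate hypoxia, at -1.42 (-1.56 to -1.28), and a KDM6B copy had 146.0 counts, against 463.8 counts, at -1.26 (-1.42 to -1.10). These rows held higher levels at 4.5 mg/L than at either other oxygen level. The second phf8 row stood at -1.32, the first tet2 row at -1.20 and the phf2 row at -1.98 on 16 counts in severe hypoxia, against 84 in moderate hypoxia. The kdm2aa row, at -0.98 (-1.13 to -0.82), lay just outside the call.

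Higher in severe than in moderate hypoxia were 9 rows on scaled counts and 4 on library totals, none by 2-fold. A kdm8 copy had 87.67 counts in severe hypoxia, against 64.33 counts in moderate hypoxia, at 0.85 (0.58 to 1.13). The jmjd7 row stood at 0.71 (0.51 to 0.91) and the jmjd4 row at 0.36. The most abundant kdm2b copy, with 932.0 counts in severe hypoxia, against 867.9 counts in moderate hypoxia, stood at 0.51 (0.43 to 0.59). The jmjd6 copies stood at 0.33 and 0.23, a direction that turns on library totals, where the severe over moderate ratio of the family they dominate was -0.05. With the length trend taken out the members' median was -0.11, and 4 rows were called lower, or 6.45%, where 10.2% of all rows were, 1 of them a kdm8 row at -1.23 that was not called before.

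Copies of 1 gene did not always share a ratio. The gap between the highest and lowest copy was 0.17 for kdm1a, 0.09 for kdm4b and 0.29 for tet2 in moderate over control log2 ratios. It was 1.96 for kdm6b, 1.78 for kdm4a, 1.75 for kdm7a, 1.44 for kdm2a and 1.33 for tet3. For kdm2b it was 3.31 and for phf2 2.61, in both cases with a row under 10 counts in the control. Near-identical copies share reads and the authors' counting could split them, so the value of a single copy is uncertain. How alike the copies are in sequence was not tested. A gene sum does not depend on such a split. It can also join rows that differ, as for kdm6b, where it includes the separately named kdm6ba and kdm6bb.

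Other chromatin genes were set beside the members. Of 75 rows of histone lysine methyltransferases, the writers opposite to these erasers, 23 were called higher and 3 lower in moderate hypoxia over the control, with a median of 0.60, next to the members' 0.62. Here and for the lists below, 20.0% of all rows were called higher and 14.1% lower in that comparison, and 13.7% and 4.40% in severe hypoxia over the control. In severe hypoxia over the control 4 were called higher and 1 lower, with a median of 0.02. Among them dot1l, which methylates lysine 79, had 137.0 counts in severe hypoxia, 434.7 counts in moderate hypoxia and 56 counts in the control. In the KMT2 COMPASS complexes, which write the mark that KDM5 removes, 15 of 38 rows were called higher and 4 lower in moderate hypoxia, with a median of 0.80, and kmt2d had 1057, 3556 and 885.7 counts. DNA methylation writers and partners had a median of 0.48, with 5 of 28 rows called higher and 0 lower, polycomb proteins one of 0.28, with 16 of 58 called higher and 2 lower, and CoREST partners of KDM1A one of 0.28, with 7 of 26 called higher and 2 lower. Methyltransferases and members thus stood at like medians in moderate hypoxia, and the difference between them was not tested. The COMPASS list shares kmt2d and other genes with the methyltransferases, and the polycomb list shares ezh1 and ezh2 with them. These lists are therefore not independent of each other.

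Other enzymes that share the cofactors stood nearer to the table's median, although their list also holds jarid2, a chromatin protein. Other oxygen and 2-oxoglutarate dependent enzymes had a median of 0.08 in moderate hypoxia over the control, with 5 of 33 rows called higher and 6 lower, and -0.03 in severe hypoxia over the control, with 0 called either way. Their member alkbh5, an RNA demethylase that is a hypoxia-inducible gene in mammals, had 252.7 counts in severe hypoxia, 488.0 counts in moderate hypoxia and 127.7 counts in the control. Enzymes that supply or use 2-oxoglutarate had a median of 0.10 in moderate hypoxia and -0.04 in severe hypoxia, with 12 and 6 of 59 rows called higher and 3 and 1 lower. Both lists hold shorter transcripts, with median lengths of 2499 and 2571 bases, against 5683 for the members and 5572 for the methyltransferases. With the length trend taken out, their medians in moderate hypoxia over the control were 0.11 and 0.14. The members then stood at 0.31 and the methyltransferases at 0.21. The hypoxia-inducible factor subunits and their prolyl hydroxylases had medians of 0.81 and 0.76 over 14 rows, 7 of them called higher and 1 lower in each comparison. Here egln3, a known target of the factor, was highest at the lowest oxygen, with 766.0 counts in severe hypoxia, 274.0 counts in moderate hypoxia and 71.67 counts in the control. In the same list epas1, a hypoxia-inducible factor subunit, was highest at 4.5 mg/L, as kdm5c, tet2 and phf8 were, with 212.0 counts in severe hypoxia, 423.3 counts in moderate hypoxia and 66.33 counts in the control.

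**Figure D4:**
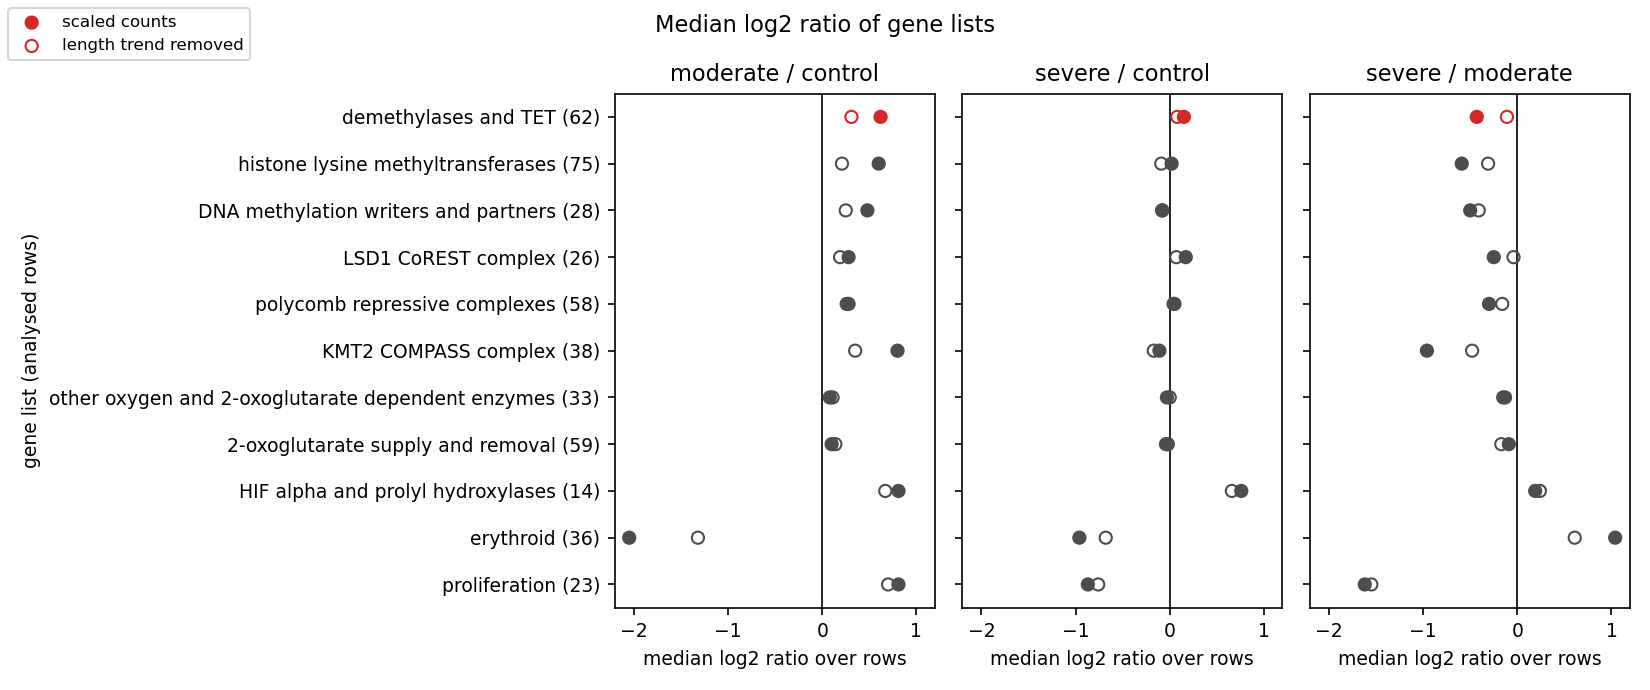
Median log2 ratio over the analysed rows (x axis) of the members, in red, and of other gene lists, in grey (y axis, number of rows in brackets), for the 3 comparisons. Filled circles are scaled counts and open circles have the trend with transcript length taken out. The members lie next to the lysine methyltransferases in the left panel, at 0.62 and 0.60, while the erythroid list lies at -2.05.

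Markers of other cell populations moved too. Erythroid markers summed to 955778 counts in severe hypoxia, 561873 counts in moderate hypoxia and 1700095 counts in the control, and 27 of their 36 rows were called lower in moderate hypoxia over the control. Proliferation genes summed to 11261, 41579 and 16245 counts, and their 23 rows had medians of 0.81 for moderate over control, -0.87 for severe over control and -1.62 for severe over moderate. Muscle markers summed to 3674, 1358 and 4962 counts, with a median of -3.47 for moderate over control. Liver markers summed to 1442, 877.0 and 1149 counts, most of them from serpina1, with 786.6, 785.7 and 642.8 counts. The liver list's median was -4.74 for moderate over control, with 5 of 7 rows called lower, and apoa2 had 294.3 counts in severe hypoxia, 5.333 counts in moderate hypoxia and 228.5 counts in the control. By median, moderate hypoxia stood apart from both other groups in the liver list, whose severe over control median was 0.04. In the muscle and erythroid lists severe hypoxia lay between the other groups, with medians of -0.93 and -0.96 over the control. In the proliferation list the control lay between the hypoxia groups. Muscle had 1 row at 0 in moderate hypoxia, and no row of the other lists was at 0. Blood progenitor, neutrophil, macrophage, B cell, T and NK cell, thrombocyte, endothelial, interrenal, chromaffin and kidney tubule lists all had counts in all groups. The part of cell make-up in the members' ratios was not tested.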

How the data were processed

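RNA of the head kidney was sequenced in 9 libraries, 3 per group, grouped by the treatment in the labels. Per the submitters' processing notes, the tools were HISAT2 and Bowtie2 2.2.8, with no role given. The sources used here do not give the counting tool, strand setting, filters or genome build. Per the file headers, the authors deposited 1 FPKM value (fragments scaled by length and library size) and 1 estimated count per gene and group. The counts were taken as means over 3 libraries, because after multiplication by 3 71.5% of non-zero values in severe hypoxia, 69.6% in moderate hypoxia and 73.9% in the control were whole within 0.002. The table has a fixed width of 8 characters per field and was split by position, with 1985 lines of overflowing text left out. Symbols end after 8 characters and are the authors' assignments. Compared without regard to case, 13 of the members' 31 symbols occur in RefSeq's gene table for the assembly USDA_OmykA_1.1. Rows with the same 6 values as another row numbered 72, of which 0 were members.

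A planned test per library was not possible, because each group has 1 deposited value. Rows with a mean of at least 10 counts in a group were compared instead. Scaling used trimmed means of M values, with 30% of ratios and 5% of abundances trimmed, in Python 3.11.15 with scipy 1.17.1, numpy 2.4.6 and pandas 2.3.3 (figures in matplotlib 3.10.9), and rows were called at 2-fold. Counting intervals (Clopper-Pearson, exact, 95%) take the summed counts of 3 libraries in each group and cover counting error only. Transcript length was derived from each row's deposited count and FPKM, and its trend was taken out as the median over 50 bins. Scaling and trend removal were tested on simulated data with few changed genes and no shift in library make-up. A shift such as the one between these groups was not covered. Genes were named by a rule: every family, a fixed set of genes, the 8 largest ratios each way among rows reaching 50 counts in either group, and up to 3 genes of each other list. The text gives a selection of these and adds rows chosen after their values were seen. The members, the 8 pathway lists and the 14 marker lists were chosen with earlier results of these data known. Alternatives were other scalings, minimum counts, folds, FPKM with pseudocounts, removal of the length trend and summed copies.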

Additional observations from a re-analysis of the deposited data

How the results depend on the processing

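The members' median log2 ratio for moderate over control was 1.30 on library totals, 1.11 on totals without globin and mitochondrial genes, 0.91 on FPKM with a pseudocount of 1 and 1.18 with 0.1. On scaled counts it was 0.31 with the length trend removed and 0.51 with rows of a symbol summed. For severe over control it was 0.49, 0.38, 0.29 and 0.44 under the first 4 of these settings, and for severe over moderate -0.78 on library totals, -0.70 on totals without globin and mitochondrial genes, -0.72 on FPKM with a pseudocount of 0.1 and -0.11 with the length trend removed. The members' median minus that of all rows was 0.61, 0.15 and -0.44 under all 4 count scalings. That sameness was fixed in advance, since such a scaling moves the ratios of all rows alike.

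Each count of members called is followed by the share of all rows called in the same setting. Members called higher in moderate over control were 41 on library totals (38.0%), 34 on totals without globin and mitochondrial genes (31.7%), 38 on FPKM with a pseudocount of 0.1 (33.9%), 9 of 31 symbols with rows summed (16.2%) and 32 at 1.5-fold (29.4%), with 3 called lower at 1.5-fold (26.0%). For severe over control they were 19 (20.4%), 15 (17.9%), 16 (15.3%), 3 (10.5%) and 19 (22.3%) in the same settings, 4 on FPKM with a pseudocount of 1 (3.87%), and 2 lower at 1.5-fold (13.1%). For severe over moderate, members called lower were 16 (19.5%), 13 (17%), 14 (16.1%), 4 (8.44%) and 18 (21.8%), and 4 with the length trend removed (10.2%), with 2 called higher at 1.5-fold (21.1%).

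Families turned direction in 23 of 300 values under alternatives. The 300 include values from settings that cannot change a family's sum, as given below. For moderate over control, removing the length trend gave KDM4 -0.0039 and KDM6 -0.19, and KDM8 was 0.31 on library totals, 0.11 without globin and mitochondrial genes, and 0.35 and 0.41 on FPKM with pseudocounts of 1 and 0.1. For severe over control, KDM6 was 0.13, 0.01, 0.10 and 0.10 under these 4 settings, KDM8 0.03 on library totals and KDM4 -0.02 with the length trend removed. For severe over moderate, removing the length trend gave KDM2 0.06, KDM3 0.04, TET 0.20 and KDM8 -0.06. KDM8 was -0.27, -0.19, -0.37 and -0.43 under the 4 settings above, and the JMJD proteins were -0.05 on library totals and -0.04 on FPKM with either pseudocount. The cause was not tested. Other minimum counts and size factors by median of ratios turned none of these values. Summed symbols and counting rows of equal values once could not turn any, since they leave a family's sum unchanged. No paired analysis was possible because the deposited columns carry no library, and leaving out replicates could not be run for the same reason.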

Other observations

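JARID2, a jumonji protein without demethylase activity that belongs to a polycomb complex, was outside the rule for members. The jarid2a row had 65.67 counts in severe hypoxia, 239.7 counts in moderate hypoxia and 29.00 counts in the control, with log2 ratios of 2.35 for moderate over control, 0.89 for severe over control and -1.46 for severe over moderate. The jarid2b rows stood at 0.73 and 0.18 for moderate over control. Like kdm5c and tet2, all 3 rows were highest in moderate hypoxia, and these rows were looked up after the members' values were seen. They also count in the polycomb list and in that of other oxygen and 2-oxoglutarate dependent enzymes above.

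Among the partners of KDM1A, 4 rows were matched to gfi1, a transcription factor of blood progenitors. They summed to 458.3 counts in severe hypoxia, 514.0 counts in moderate hypoxia and 664.7 counts in the control. Their scaled log2 ratios over the control were -0.82 in severe hypoxia and -1.07 in moderate hypoxia. The matching took a final b as a copy suffix, so any row of gfi1b, a separate gene, is in this sum. In the same complex zmym3 had 418.3, 1172 and 341.3 counts, a moderate over control ratio of 1.09. No value per library was at hand for any of these genes, so their spread between fish is unknown.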
